A study of Mus musculus with 9 samples.

Results

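The genes described are 10 members of the insulin and insulin-like growth factor (IGF) system: the ligands Igf1 and Igf2, the receptors Igf1r, Insr and Igf2r, the receptor adaptors Irs1 and Irs2, and the binding proteins Igfbp3, Igfbp5 and Igfbp7. They were chosen by symbol, and all 10 were found among the 18738 protein-coding genes of the table and among the 13655 that were tested. Newborn mouse heart cells carried high Igf2 under every maternal diet. Igfbp3, Irs2 and Igf1r were higher in pups of high-fat-fed dams than in pups of dams on the slight high-fat diet. Against the normal diet 1 member, Igfbp7, passed the test, as a fall close to the threshold.

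IGF1 and IGF2 bind the IGF1 receptor, a tyrosine kinase related to the insulin receptor, and both receptors phosphorylate the adaptors IRS1 and IRS2, which recruit PI3-kinase and so activate AKT and mTORC1. The IGF2 receptor, also the cation-independent mannose 6-phosphate receptor, takes IGF2 to the lysosome for breakdown. In the mouse Igf2 is expressed from the paternal and Igf2r from the maternal allele, and IGF2 is the main IGF of the fetus, a mitogen of the fetal heart wall among other tissues. IGF binding proteins hold the ligands outside the cell. AKT keeps FoxO transcription factors out of the nucleus, so genes driven by FoxO, which include Irs2 and Insr in several tissues, are higher when insulin and IGF signalling is low.

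RNA was sequenced from cardiomyocytes of wild-type (WT) C57BL/6J pups on postnatal day 0, in 9 libraries. The dams had been assigned at random to 1 of 3 diets for the whole of pregnancy: normal (ND), slight high-fat (sHFD) and high-fat (HFD), and each diet has 3 libraries. What the diets contained, the sex of the pups and the number of animals behind a library are not stated in the labels. Values are TPM, a unit scaled for transcript length and to the same total in each library, so levels can be set beside each other between genes, and read depth is unknown.

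The isolates held RNA of cells other than cardiomyocytes. The cardiomyocyte genes Myh6 and Tnnt2 stood at 5329 to 9631 and 4226 to 9973 TPM over the 9 libraries, while the fibroblast collagen gene Col3a1 stood at 2120 to 3194 TPM and the endothelial cadherin gene Cdh5 at 597 to 1086 TPM. Liver markers, relevant because liver is a main source of circulating IGFs, were at most 2.92 TPM for 7 of the 8 genes in the table, among them Afp and Apob at most at 0.22 and 0.05 TPM. The other, Ahsg, had 76.4, 75.0 and 75.7 TPM in HFD, 60.0, 37.9 and 77.5 TPM in ND and 36.2, 26.4 and 55.1 TPM in sHFD, and rose in HFD against sHFD (log2 0.99, SE 0.27, limma adjusted p = 0.0138), in the direction of Igfbp3, Irs2 and Igf1r. The part of liver RNA in the members' differences was not tested. A member's level in such bulk RNA is the sum over these cells, and fewer cells of a type and less RNA per cell cannot be told apart. The ND libraries differed among themselves. The summed level of 18 immediate-early and heat-shock genes, which respond within minutes to cell stress, was 11937, 2685 and 6470 TPM in ND replicates 1 to 3, 2503 to 2767 TPM in sHFD and 8701, 8114 and 13286 TPM in HFD.

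Among the ligands, Igf2 was far above Igf1. Igf2 had 3892, 3360 and 3539 TPM in ND, 2602, 3326 and 2682 TPM in sHFD and 3589, 3489 and 3473 TPM in HFD, and stood above 99.86% to 99.94% of all genes, the lowest share in sHFD replicate 1. Igf1 had 36.4, 60.6 and 45.0 TPM in ND, 36.8, 44.8 and 49.2 TPM in sHFD and 21.8, 31.2 and 38.1 TPM in HFD. The Igf2 level was thus 54.6 to 165 times that of Igf1, with the highest ratio in HFD replicate 1. The insulin gene Ins2 was listed at 0 in 5 of the 9 libraries and reached at most 0.76 TPM, and Ins1 was not analysed here.

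The receptors differed in level by about an order of magnitude. Igf2r, the clearance receptor, had 334 to 445 TPM over the 9 libraries, and its highest value was only 1.33 times its lowest, the narrowest range of the 10 members. Insr, the insulin receptor, had 31.0, 59.0 and 29.1 TPM in ND, 41.7, 56.0 and 44.7 TPM in sHFD and 31.6, 35.3 and 53.9 TPM in HFD, so that the diets overlapped throughout. Igf1r had 40.1, 34.4 and 28.2 TPM in ND, 27.9, 35.8 and 27.9 TPM in sHFD and 45.9, 48.6 and 60.6 TPM in HFD, and every HFD library lay above every library of the other diets.

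Of the adaptors, Irs2 varied most of all members, with its highest value 4.98 times its lowest. Irs2 had 55.3, 21.3 and 26.3 TPM in ND, 20.7, 29.6 and 23.2 TPM in sHFD and 50.7, 49.4 and 103 TPM in HFD. HFD replicate 3 was the highest, and ND replicate 1 lay among the HFD libraries. Irs1 had 16.1, 16.7 and 10.9 TPM in ND, 13.8, 18.2 and 12.5 TPM in sHFD and 18.7, 22.0 and 30.4 TPM in HFD, and was the lowest of the 10 members in every library.

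The binding proteins were abundant. Igfbp5, the binder with the highest mean, had 828, 925 and 671 TPM in ND, 467, 857 and 632 TPM in sHFD and 616, 666 and 588 TPM in HFD. Igfbp7, a secreted protein of vessel walls that binds IGFs weakly, had 615, 480 and 770.5 TPM in ND, 596, 541 and 522 TPM in sHFD and 400.1, 400.2 and 416 TPM in HFD. The HFD values of Igfbp7 lay close together and below all others. Igfbp3, the main carrier of IGFs in adult blood, had 142, 75.3 and 119 TPM in ND, 58.5, 83.6 and 71.7 TPM in sHFD and 140.2, 153 and 225 TPM in HFD, so that the HFD and sHFD libraries stood well apart and ND bridged them.

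**Figure D1:**
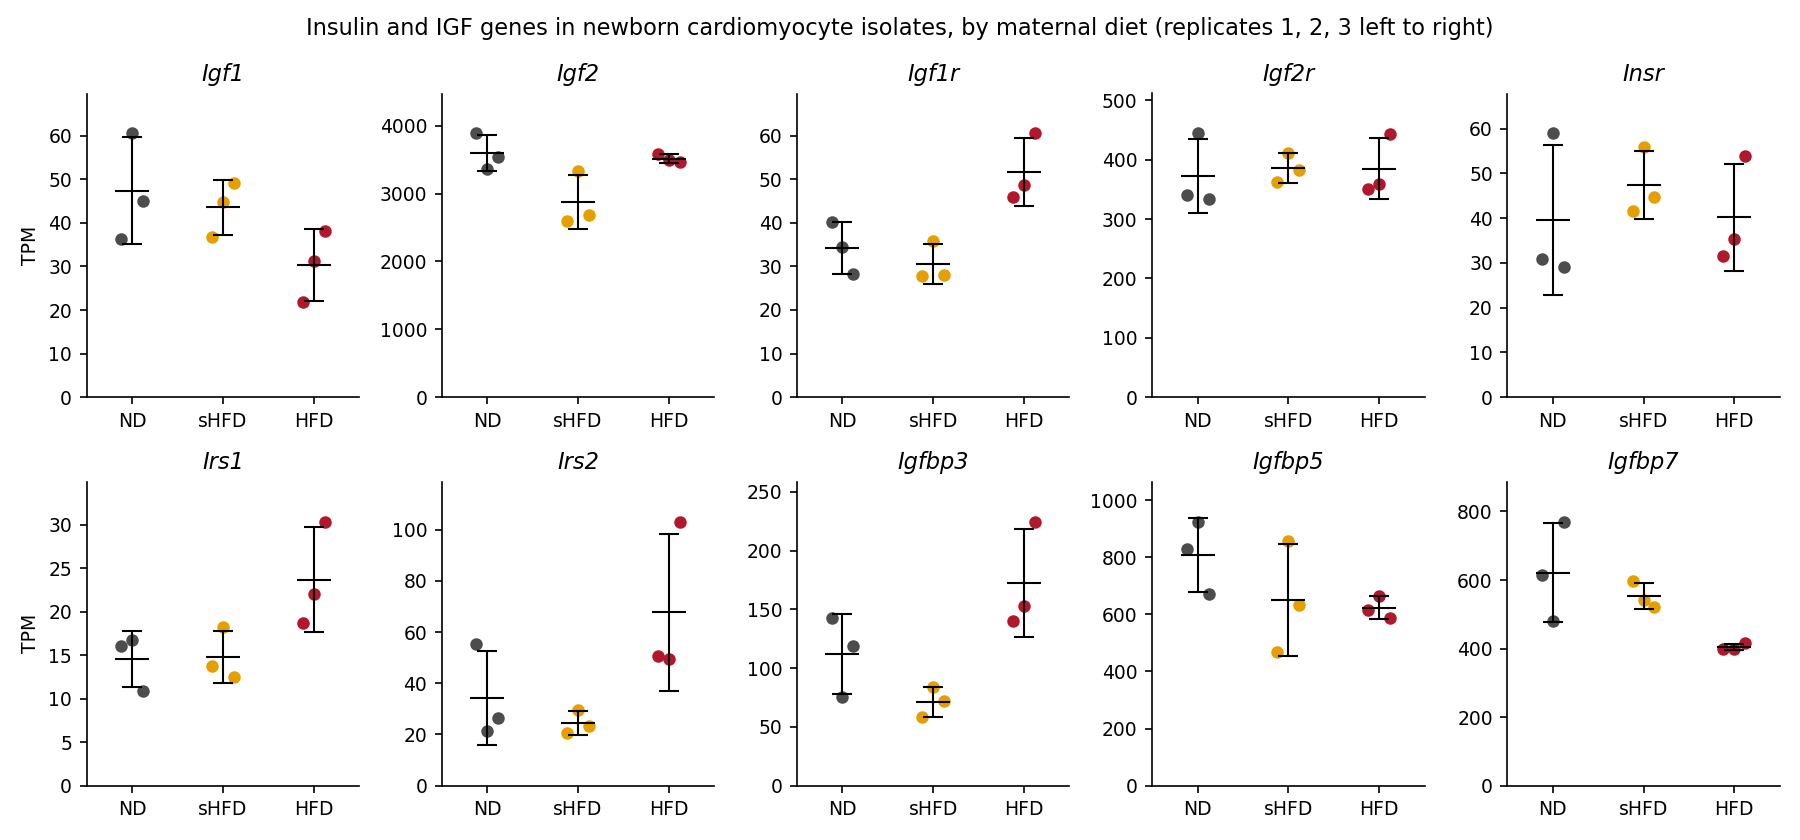
TPM of each of the 10 members (vertical axes, from 0, own scale per gene) in the 3 libraries of each maternal diet; points are libraries, the wide tick is the mean and the bars are 1 SD. Igf1r, Irs2 and Igfbp3 lie higher in HFD than in sHFD with no overlap, Igfbp7 is lowest in HFD, and Igf2r and Insr overlap between diets.

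The order of mean levels was the same at the top under each diet: Igf2, Igfbp5, Igfbp7, Igf2r and Igfbp3. Igfbp5 and Igfbp7 did not differ beyond their spread in ND or sHFD, and Igfbp7 and Igf2r did not in HFD. Below Igfbp3 the order changed with diet. Igf1 (47.3 ± 12.3 TPM), Insr, Irs2 and Igf1r followed each other in ND with overlapping libraries, the sHFD order was Insr, Igf1, Igf1r and Irs2, and Irs2 (67.8 ± 30.6 TPM) and Igf1r (51.7 ± 7.81 TPM) led Insr and Igf1 in HFD (SD, n = 3 each). In HFD each of these neighbours overlapped the next.

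Against sHFD, HFD cardiomyocyte isolates had more Igfbp3, Irs2 and Igf1r mRNA, and no member fell. Igfbp3 averaged 172 ± 45.7 TPM in HFD and 71.3 ± 12.5 TPM in sHFD (SD, n = 3 each), and its log2 difference was 1.25 (SE 0.24, limma adjusted p = 0.00308). Irs2 averaged 67.8 ± 30.6 TPM in HFD and 24.5 ± 4.56 TPM in sHFD (log2 1.36, SE 0.33, limma adjusted p = 0.00891), and Igf1r 51.7 ± 7.81 TPM in HFD and 30.5 ± 4.55 TPM in sHFD (log2 0.74, SE 0.18, limma adjusted p = 0.0098). All 3 passed in each of 20 alternative fits, 9 of which leave out a library each, and the 3 HFD libraries lay above the 3 sHFD libraries for each of them. Of the 13655 genes tested, 34.2% passed in this comparison, 10.3% as higher and 23.9% as lower in HFD, beside 3 and 0 of the 10 members. Without overlap, 5 members lay higher and 1 lower in HFD, where 16.6% and 34.7% of all genes did, 51.3% together. The median log2 difference was 0.15 over the members and -0.16 over all genes, and median-ratio scaling moved the all-gene median to -0.01. The immediate-early and heat-shock list moved the same way, with 17 of its 18 genes higher in HFD, and its part in these differences was not tested.

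The remaining members did not pass in HFD vs sHFD. Irs1 had a log2 difference of 0.63 (95% interval 0.13 to 1.13, limma adjusted p = 0.0505) with no overlap between the libraries of these diets, and passed in 12 of the 20 alternative fits. Igf2, higher in every HFD than in every sHFD library, had one of 0.30 (interval -0.10 to 0.70). Igfbp7 lay lower in HFD without overlap, at -0.44 (interval -0.82 to -0.06, limma adjusted p = 0.0665), and passed in 3 of the 20 fits, and Igf1 at -0.53 (interval -1.03 to -0.04, limma adjusted p = 0.0868) passed in 4. Igf2r, Insr and Igfbp5 had differences of -0.01, -0.26 and -0.02, with intervals that reach from -0.37 to 0.35, from -0.83 to 0.31 and from -0.48 to 0.44.

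**Figure D2:**
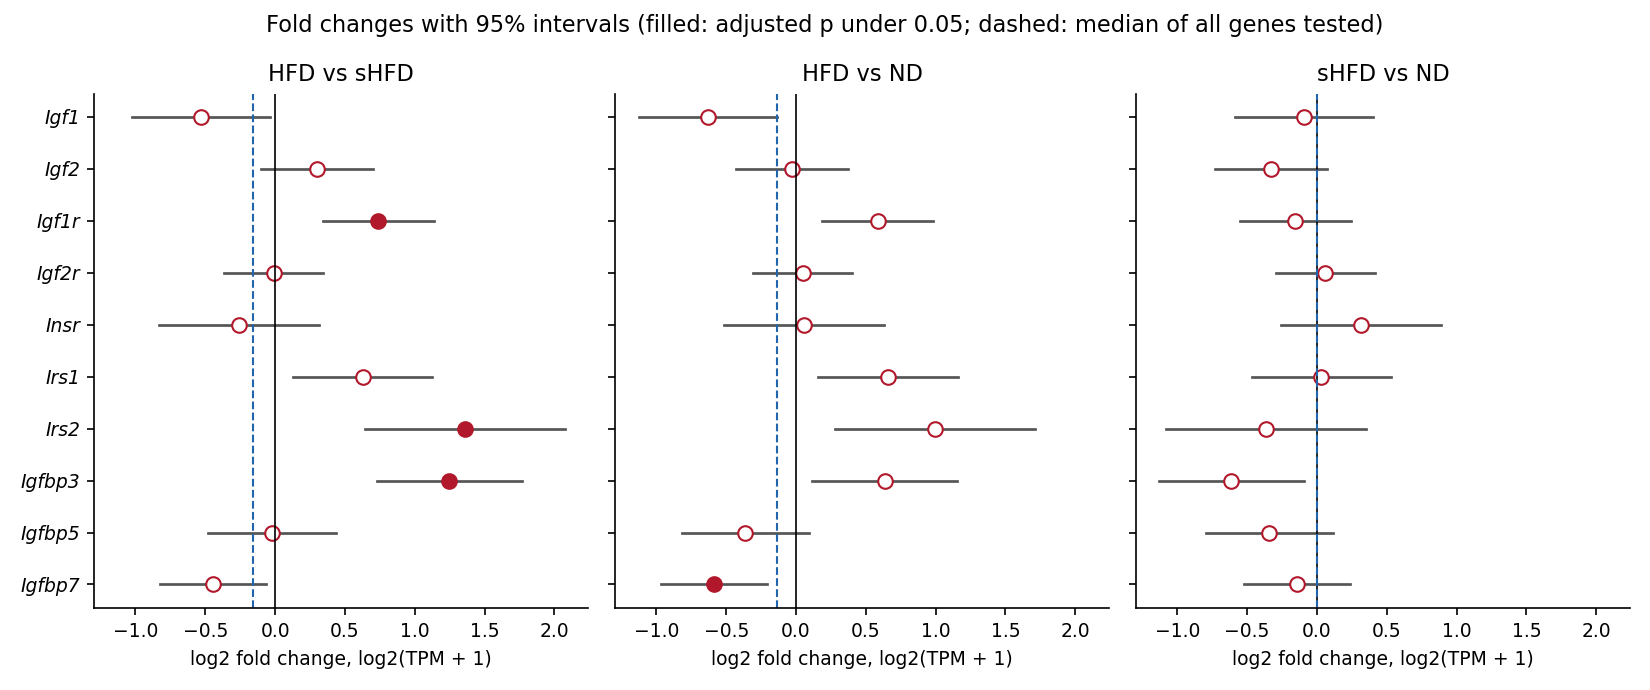
Log2 fold changes on the log2(TPM + 1) scale (horizontal axis) of the 10 members in HFD vs sHFD, HFD vs ND and sHFD vs ND, with 95% intervals from limma; filled points passed an adjusted p of 0.05 and the dashed line is the median of all genes tested. Igf1r, Irs2 and Igfbp3 are filled in HFD vs sHFD and Igfbp7 in HFD vs ND.

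The start regions of the 3 members that rose are shown because these genes moved together between HFD and sHFD. The 250 bases before the annotated start are given 5′ to 3′ on the gene's strand, from RefSeq on GRCm38.p6, with capitals for the GC box GGGCGG and for the E-box CACGTG, searched on both strands. The windows are chr11:7213924-7214173 (minus strand) for Igfbp3, whose table entry starts inside the gene span, chr8:11008930-11009179 (minus strand) for Irs2 and chr7:67952007-67952256 (plus strand) for Igf1r.
Igfbp3: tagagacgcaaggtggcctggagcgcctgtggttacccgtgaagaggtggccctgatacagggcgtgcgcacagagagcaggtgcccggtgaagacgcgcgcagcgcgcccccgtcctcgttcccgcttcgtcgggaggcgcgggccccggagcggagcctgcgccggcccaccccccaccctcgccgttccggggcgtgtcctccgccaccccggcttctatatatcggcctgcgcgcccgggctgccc
Irs2: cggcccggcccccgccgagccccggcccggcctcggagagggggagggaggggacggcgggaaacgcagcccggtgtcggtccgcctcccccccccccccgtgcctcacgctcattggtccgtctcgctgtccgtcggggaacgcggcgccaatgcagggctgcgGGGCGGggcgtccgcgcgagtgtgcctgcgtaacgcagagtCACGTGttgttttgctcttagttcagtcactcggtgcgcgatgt
Igf1r: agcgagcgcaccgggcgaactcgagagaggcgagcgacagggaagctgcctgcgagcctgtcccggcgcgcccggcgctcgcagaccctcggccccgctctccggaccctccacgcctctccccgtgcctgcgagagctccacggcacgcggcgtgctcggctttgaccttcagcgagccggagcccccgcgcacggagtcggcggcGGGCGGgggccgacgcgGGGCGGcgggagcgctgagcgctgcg

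All 3 windows were rich in G and C, at 73.2% for Igfbp3, 72.8% for Irs2 and 77.6% for Igf1r, where the median of 32851 promoter windows was 52.4%. Igf1r held 2 GC boxes and Irs2 held 1 GC box and 1 E-box, motifs found in 32.7% and 6.02% of all windows. The FoxO core GTAAACA, present in 3.17% of windows, the AP-1 element TGAGTCA in 4.46%, the cyclic AMP element TGACGTCA in 1.55% and the CArG box in 1.47% had no match in these 3 windows. Some members that did not rise had like windows: Igfbp7 had 74.0% G and C and 4 GC boxes, Irs1 72.4% with 2 GC boxes and 1 E-box, and Igf2r 69.2% with 3 GC boxes and 2 E-boxes. Others did not: Igf1 and Igfbp5 had 52.8% and 58.8% with no GC box or E-box. The windows of Igf2 ranged from 47.6% to 68.8%. Promoter windows were found for 9 of the 10 members, Insr being the member without an entry.

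Against ND, HFD isolates had less Igfbp7, and no member rose past the threshold. Igfbp7 averaged 405 ± 9.20 TPM in HFD and 622 ± 145 TPM in ND (SD, n = 3 each), and its log2 difference was -0.59 (SE 0.18, limma adjusted p = 0.0490). This call stood at the edge of the test: it passed in 6 of 20 alternative fits, 2 of them among the 9 that leave out a library, and the adjusted p was 0.213 without ND replicate 3 and 0.126, 0.162 and 0.0663 without HFD replicates 1, 2 and 3. Of all genes tested, 10.9% passed in HFD vs ND, 1.28% as higher and 9.59% as lower in HFD, so that 1 of 10 members is close to the background share. The all-gene count in this comparison, 1484 genes, was 32 without HFD replicate 2, 39 without ND replicate 3, 127 without HFD replicate 1 and 3842 without ND replicate 1. Igfbp5 also lay lower in every HFD than in every ND library, at 623 ± 39.4 TPM in HFD and 808 ± 128 TPM in ND (log2 -0.36, 95% interval -0.82 to 0.09, limma adjusted p = 0.269). Together with Igfbp7, 2 members were lower without overlap, where 22.9% of all genes were, and 27.9% were separate in either direction.

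Whether Irs2 and Igfbp3 passed against ND turned on ND replicate 1 and on the scaling. Without that library the log2 difference was 1.39 for Irs2 (limma adjusted p = 0.00422) and 0.83 for Igfbp3 (adjusted p = 0.0233), against 1.00 (adjusted p = 0.0695) and 0.63 (adjusted p = 0.0996) with all libraries. Igf1r, at 51.7 ± 7.81 TPM in HFD and 34.2 ± 5.99 TPM in ND (SD, n = 3 each), had a difference of 0.58 (limma adjusted p = 0.0587), and Irs1, at 23.7 ± 6.02 TPM in HFD and 14.6 ± 3.17 TPM in ND, one of 0.66 (adjusted p = 0.0794). Both lay higher in every HFD than in every ND library, where 5.00% of all genes did. Without ND replicate 1 these 4 genes passed as higher and Igf1 and Igfbp7 as lower, 6 members in all, while 28.1% of all genes passed. The 4 genes also passed as higher when libraries were scaled to a common median ratio, under which the all-gene split was 668 higher and 996 lower, against 175 higher and 1309 lower in unscaled TPM. Igfbp7 did not pass under that scaling (log2 -0.43, adjusted p = 0.174). With quantile normalization 2 members passed as higher, Igf1r and Irs1, while Irs2 and Igfbp3 did not pass. Of all genes 427 were higher and 637 lower under that normalization.

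Igf1, Igf2, Igf2r and Insr did not pass against ND. Igf1 averaged 30.3 ± 8.16 TPM in HFD and 47.3 ± 12.3 TPM in ND (log2 -0.63, 95% interval -1.12 to -0.14, limma adjusted p = 0.0891), with 1 HFD library above the lowest ND library, and passed in 4 of the 20 alternative fits. Igf2 averaged 3517 ± 62.5 TPM in HFD and 3597 ± 270.5 TPM in ND (log2 -0.03, interval -0.43 to 0.37). Igf2r and Insr had differences of 0.05 (interval -0.31 to 0.40) and 0.06 (interval -0.52 to 0.63), and ND replicate 2 was the highest library for Insr.

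In sHFD vs ND 0 of 10 members passed limma's test, 1 of them had an unadjusted p under 0.05, and 0.00732% of all genes passed. The member with that p was Igfbp3, at 71.3 ± 12.5 TPM in sHFD and 112 ± 34.0 TPM in ND (log2 -0.61, 95% interval -1.13 to -0.09, limma adjusted p = 0.672). Igf2 was lower in every sHFD than in every ND library, at 2870.3 ± 397 TPM in sHFD and 3597 ± 270.5 TPM in ND (log2 -0.33, interval -0.73 to 0.07, adjusted p = 0.676). The other members overlapped between these diets. Over all genes 9.40% were separate, 4.50% higher and 4.90% lower in sHFD, beside 0 and 1 of the 10 members. Each diet enters 2 of the 3 comparisons, so their values stand side by side and are not independent.

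Ratios within a library, chosen after the values were seen and not tested, do not depend on how TPM totals are scaled. Igf1r over Insr was 1.12 to 1.45 in HFD libraries against 0.625 to 0.669 in sHFD libraries, and was 1.3, 0.583 and 0.967 in ND replicates 1 to 3. Igf1r was thus above Insr in each HFD library and below it in each sHFD library. Igfbp3 over Igfbp7 was 0.350 to 0.540 in HFD against 0.0982 to 0.155 in sHFD, and HFD also lay above the 0.154 to 0.231 of ND. The summed TPM of the 6 binders Igfbp2 to Igfbp7, unlike the ratios, does depend on that scaling, and it was not tested either. The sums were 1804 to 1853 TPM in HFD and 2071 to 2386 TPM in ND, without overlap. Of single genes, 22.9% lay lower in HFD than in ND without overlap. The sHFD sums of 1639 to 2098 TPM overlapped both. Igfbp1, at most 0.21 TPM, was left out of the sum.

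The genes whose profiles over the 9 libraries came nearest to each member were found by the mean absolute difference of centred log2(TPM + 1) values, among 11224 genes averaging 5 TPM or more. Irs2 ran closest to Mafk, a small Maf transcription factor (0.11), Gabre, a GABA receptor subunit (0.12), and Nr1d1, the clock repressor REV-ERB alpha (0.13). Igfbp3 ran closest to Wdr92 (0.10), the small Maf gene Maff (0.11) and Ccnl1, cyclin L1 (0.11). For Igf1r these were Vezf1, a zinc finger factor, Utp15, of ribosome assembly, and Poc5, a centriole protein (0.05 to 0.06). ND replicate 1 was high in the Irs2 and Igfbp3 groups, as with 93.0 TPM of Mafk against 34.6 and 49.0 TPM in ND replicates 2 and 3.

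Igfbp7 ran closest to Psmb9, an immunoproteasome subunit, Loxl1, a cross-linker of elastin, and S100a16 (0.08 to 0.09), each lower in every HFD library than in every ND or sHFD library. Those of Igf1 were Ift88, Snx6 and Trps1, and those of Irs1 were Slk, Slc38a2 and Gata6. Igf2 ran nearest to Rcan1, Ctsb and Saraf, Igf2r to Castor2, Klhdc2 and Chchd3, Insr to Ccp110, Tmem41b and Atm, and Igfbp5 to Lrrn2, Tmem163 and a predicted locus. All these values share the same 9 libraries, and the nearest of so many candidates was chosen for its closeness.

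**Figure D3:**
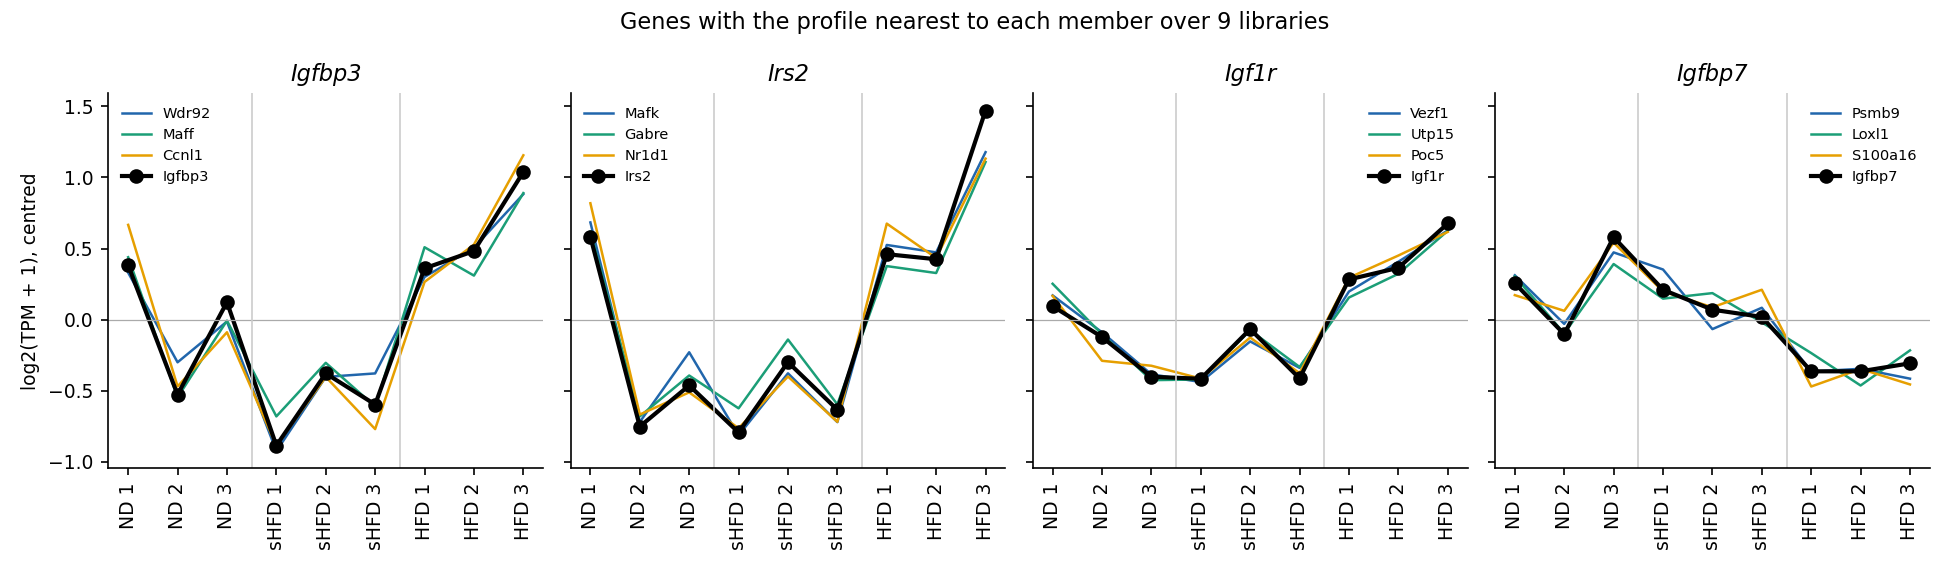
Centred log2(TPM + 1) (vertical axis) of Igfbp3, Irs2, Igf1r and Igfbp7 (black, with points) and of the 3 genes nearest to each (coloured lines) over the 9 libraries in order of diet. ND replicate 1 lies with the HFD libraries for Irs2 and Igfbp3.

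Other genes of the family and their extracellular partners were read from a list of 20, of which 19 were in the table and 13 were tested. Against sHFD 3 of them rose in HFD and 0 fell, where 10.3% and 23.9% of all genes did. The 3, named because the count is small, were Stc1, Igfbp2 and Igfbp6. Stc1, a stanniocalcin, a family that inhibits the protease PAPP-A, which frees IGFs from their binders, had 24.8, 29.5 and 40.0 TPM in HFD against 5.82, 10.7 and 6.15 TPM in sHFD (log2 1.94, SE 0.34, limma adjusted p = 0.0021). Igfbp2 and Igfbp6, binders of which the second prefers IGF2, rose by 0.60 and 0.65 on the log2 scale (adjusted p = 0.0379 and 0.0448), with overlapping libraries. Against ND 1 fell and 0 rose, where 9.59% and 1.28% of all genes did. The fall was that of Htra3, a secreted serine protease, with 48.8, 45.3 and 85.2 TPM in HFD against 104, 78.0 and 138 TPM in ND (log2 -0.85, SE 0.24, limma adjusted p = 0.0418). Its relative Htra1, at 95.9 ± 15.5 TPM in HFD and 139.5 ± 17.1 TPM in ND (SD, n = 3 each), had -0.54 (adjusted p = 0.0663), and Igfbp2 had 0.51 (adjusted p = 0.115). With median-ratio scaling 5 of the 13 rose against sHFD, where 2597 of all 13655 genes rose and 2622 fell. Under that scaling 0 passed against ND, where 668 of all genes rose and 996 fell. With a library left out, 1 to 5 rose against sHFD, 1 without HFD replicate 2 or sHFD replicate 1. The single fall against ND was lost in 6 of 9 leave-one-out fits, those without HFD replicate 1 or 2, any sHFD library or ND replicate 3.

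Of 28 genes of the PI3K, AKT and mTORC1 arm 6 rose and 6 fell against sHFD, where 10.3% of all genes rose and 23.9% fell, and the median log2 fold change was -0.01 beside -0.16 over all genes. With a library left out 3 to 6 rose and 3 to 7 fell, the fewest, 3 and 3, without HFD replicate 2. With median-ratio scaling 9 rose and 5 fell, where 2597 of all 13655 genes rose and 2622 fell. Against ND 0 rose and 1 fell, where 1.28% and 9.59% of all genes did, and 0 to 2 fell with a library left out. In the fit without ND replicate 1, 4 rose and 2 fell, where 28.1% of all genes passed in either direction. Pik3r1, the regulatory PI3-kinase subunit that docks on IRS proteins, had 59.0, 62.7 and 80.9 TPM in HFD against 32.7, 34.8 and 33.2 TPM in sHFD and rose (log2 0.97, limma adjusted p = 0.0044), and Mlst8, a subunit of both mTOR complexes, fell to 6.75 ± 0.65 TPM in HFD, against 16.5 ± 2.95 TPM in sHFD (SD, n = 3 each; log2 -1.16, adjusted p = 0.00217). Against ND, Mlst8 and Pik3r1 had -0.69 and 0.66 (adjusted p = 0.0502 and 0.0544).

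In the RAS and ERK arm with the receptor adaptors, 3 of 19 genes rose and 3 fell in HFD vs sHFD, beside 10.3% and 23.9% of all genes. Under median-ratio scaling 6 rose and 2 fell, where 2597 of all 13655 genes rose and 2622 fell. The unscaled calls of this list depended on single libraries: 0 rose without HFD replicate 3 or without sHFD replicate 1, 0 fell without sHFD replicate 2, and the ranges were 0 to 4 rises and 0 to 3 falls. Against ND 0 passed limma's test and 4 had an unadjusted p under 0.05. In the fit without ND replicate 1, 4 rose and 1 fell, where 28.1% of all genes passed. The rises against sHFD were Sos1 and Sos2, RAS activators, and Braf, a kinase below RAS, at 0.75, 0.95 and 0.89 (limma adjusted p = 0.0365, 0.0134 and 0.0263). Map2k1 and Map2k2, the kinases of ERK, were among the falls, at -0.69 and -0.51 (adjusted p = 0.0176 and 0.0209). Of these only Sos2 and Map2k2 come under the naming rule, and the others are named because the counts are small. For Sos2 and Map2k2 the differences from ND were 0.60 and -0.38 (adjusted p = 0.134 and 0.109), and that of the adaptor gene Shc1 was -0.36 (adjusted p = 0.145).

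Of 15 genes listed as brakes on the receptors or on the signalling below them, 9 were higher in HFD than in sHFD and 0 lower. Over all genes 10.3% were higher and 23.9% lower. The median log2 fold change was 0.68 in the list, beside -0.16 over all genes. The list was chosen with earlier results of these data known. Socs1, a suppressor of cytokine signalling that also acts on IRS proteins, had 19.2, 14.5 and 20.3 TPM in HFD against 2.53, 4.84 and 4.07 TPM in sHFD (log2 2.00, SE 0.34, limma adjusted p = 0.00187). Socs6 and Spry2, an inhibitor of growth factor signalling to ERK, rose by 1.01 and 0.58 (adjusted p = 0.00473 and 0.0173). The other 6 that rose were Socs3, Trib1, Phlpp1, Phlpp2, Pik3ip1 and Dusp6, of which Socs3 had the largest difference, 2.27 (adjusted p = 0.00396). As background, Socs3, Trib1 and Dusp6 are themselves induced rapidly by cytokines or growth factors, and the immediate-early and heat-shock list rose in the same libraries. Against ND 0 of the 15 passed, 3 had an unadjusted p under 0.05, and Socs1, Socs6 and Spry2 had 0.99, 0.70 and 0.48 (adjusted p = 0.0745, 0.0539 and 0.0729). In ND replicate 1 Socs1 stood at 16.2 TPM, against 4.64 and 7.85 TPM in ND replicates 2 and 3. Without that library 5 of the 15 rose and 1 fell against ND, where 28.1% of all genes passed, 987 higher and 2855 lower. Against sHFD 6 to 10 rose and 0 or 1 fell with a library left out. Grb10, an imprinted adaptor that inhibits both receptors, had 223 ± 49.7 TPM in HFD and 278 ± 62.9 TPM in ND (SD, n = 3 each) and did not pass in either comparison. Grb14, Ptpn1, Ptprf, Enpp1 and Trib3 did not pass in either. Grb14 lay lower in every HFD library (52.5 to 73.3 TPM) than in every sHFD library (84.1 to 105 TPM).

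Of the 5 pathway lists, the FoxO-responsive genes had the most rises against ND. The lists were chosen with earlier results of these data known, so their order is not independent of these data. Of 16 genes 4 rose and 0 fell against ND, where 1.28% and 9.59% of all genes did. Against sHFD 9 rose and 1 fell, where 10.3% and 23.9% of all genes did. The median log2 fold changes were 0.43 and 0.79, beside -0.14 and -0.16 over all genes. Klf15, a metabolic Krüppel-like factor, had 48.1, 43.8 and 62.5 TPM in HFD against 28.8, 14.0 and 21.7 TPM in ND (log2 1.26, SE 0.25, limma adjusted p = 0.0132). Cited2, a transcriptional co-regulator, and Bnip3, a mitophagy receptor, rose by 0.92 and 0.86 against ND (adjusted p = 0.0167 and 0.0199) and by 1.17 and 0.84 against sHFD (adjusted p = 0.00187 and 0.00697). The fourth rise against ND was Sesn1, a sestrin (log2 1.2, adjusted p = 0.0304), and the fall against sHFD was Cat, catalase (log2 -0.88, adjusted p = 0.00755), both named because the counts are small. The list did not move as a whole, as 12 genes did not pass against ND and 6 did not against sHFD. Fbxo32, Pdk4, Sod2 and Trim63 passed in neither comparison. Fbxo32 averaged 17.4 TPM in HFD, 18.3 TPM in ND and 19.1 TPM in sHFD, and Pdk4 85.25, 107.6 and 85.9 TPM in the same order. Several genes of the list also respond to p53, glucocorticoids or hypoxia. With a library left out, the count of rises in HFD vs sHFD stayed at 8 or 9, and in HFD vs ND it was 0 to 8. The 8 rises, with 1 fall, came without ND replicate 1, where 28.1% of all genes passed. With median-ratio scaling 8 rose and 0 fell against ND, where 668 of all 13655 genes rose and 996 fell.

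**Figure D4:**
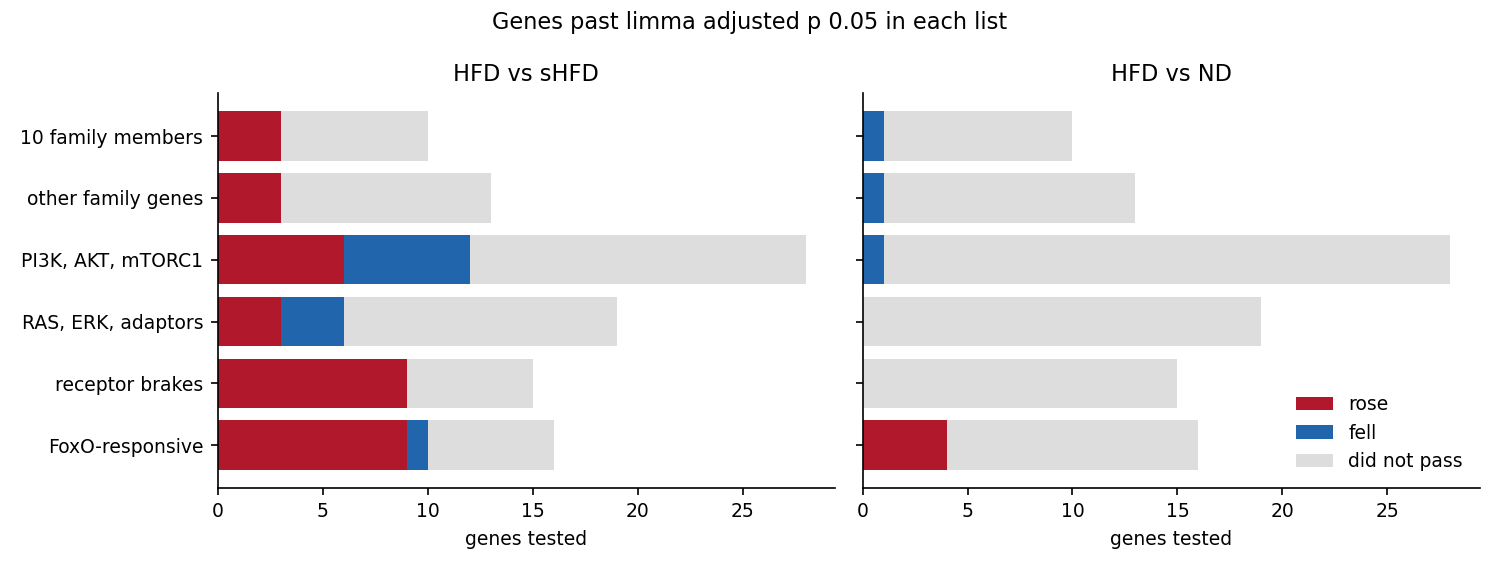
Number of genes (horizontal axis) in the 10 members and in each of 5 pathway lists that rose, fell or did not pass limma's adjusted p of 0.05, in HFD vs sHFD and HFD vs ND. The lists were chosen with earlier results of these data known. The receptor brakes list also holds brakes on the signalling below the receptors. In HFD vs sHFD 9 of its genes and 9 FoxO-responsive genes rose, where 10.3% of all genes did. In HFD vs ND 4 FoxO-responsive genes rose, where 1.28% of all genes did.

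Cell type markers moved with diet beside the members. Over all genes 1.28% rose and 9.59% fell in HFD vs ND, and 10.3% rose and 23.9% fell in HFD vs sHFD. With median-ratio scaling 668 of all 13655 genes rose and 996 fell in HFD vs ND. In HFD vs sHFD 2597 rose and 2622 fell under that scaling. All 10 macrophage and leukocyte markers fell in HFD vs ND, a count of 0 without HFD replicate 2 or ND replicate 3, 3 without HFD replicate 1 and 7 with median-ratio scaling. Against sHFD 5 of 10 fell, 3 to 6 with a library left out. Their summed level was 259 to 299 TPM in HFD against 462 to 649 TPM in ND and 353 to 450 TPM in sHFD. Igf1, which macrophages and fibroblasts make in many tissues, stood lowest in HFD as well, though it did not pass. Of 10 smooth muscle and pericyte markers, which share vessel walls with Igfbp7, 5 fell in HFD against ND and 8 against sHFD, among them both times the pericyte channel gene Kcnj8, at 9.49 ± 0.86 TPM in HFD and 24.7 ± 3.56 TPM in ND (SD, n = 3 each). With a library left out the falls numbered 1 to 7 against ND, 1 without HFD replicate 1, HFD replicate 2 or ND replicate 3, and 3 to 8 against sHFD, 3 without HFD replicate 2. Their summed level, of which Acta2 made up the largest share, was 1446 to 1642 TPM in HFD against 1369 to 1617 TPM in ND and 1756 to 2529 TPM in sHFD. The 10 fibroblast and 10 endothelial markers gave 0 calls against ND, with 2 and 1 of them at an unadjusted p under 0.05. Against sHFD the fibroblast markers gave 0 calls, with 2 at an unadjusted p under 0.05, and the endothelial ones 1, the fall of the VEGF receptor gene Kdr. Endothelial falls against sHFD numbered 0 without HFD replicate 1 or 2 or sHFD replicate 2 or 3. With median-ratio scaling 0 endothelial markers fell and 1 rose against sHFD. The summed fibroblast level was 9345 to 10365 TPM in HFD against 9532 to 11741 TPM in ND, and the endothelial one 3567 to 4035 TPM in HFD against 3211 to 4896 TPM in ND. Of 10 cardiomyocyte markers 1 rose and 0 fell against ND, and 1 rose and 1 fell against sHFD. Of 8 epicardial markers 1 rose and 1 fell against ND, and 2 rose and 1 fell against sHFD. With a library left out 0 to 3 epicardial markers rose in either comparison, 0 to 1 fell against ND and 1 fell against sHFD. Of 7 red cell genes 1 fell against ND and 6 against sHFD, with sums of 4252 to 7717 TPM in HFD, 8047 to 18762 TPM in ND and 9309 to 12970 TPM in sHFD. The falls against sHFD numbered 1 without HFD replicate 2 or sHFD replicate 1, 2 without HFD replicate 3 or sHFD replicate 3 and 2 with median-ratio scaling, and those against ND 0 to 5 with a library left out, 5 without ND replicate 1. No marker in these lists was at 0 in every library, and the part of the cell mix in the members' differences was not tested.

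**Figure D5:**
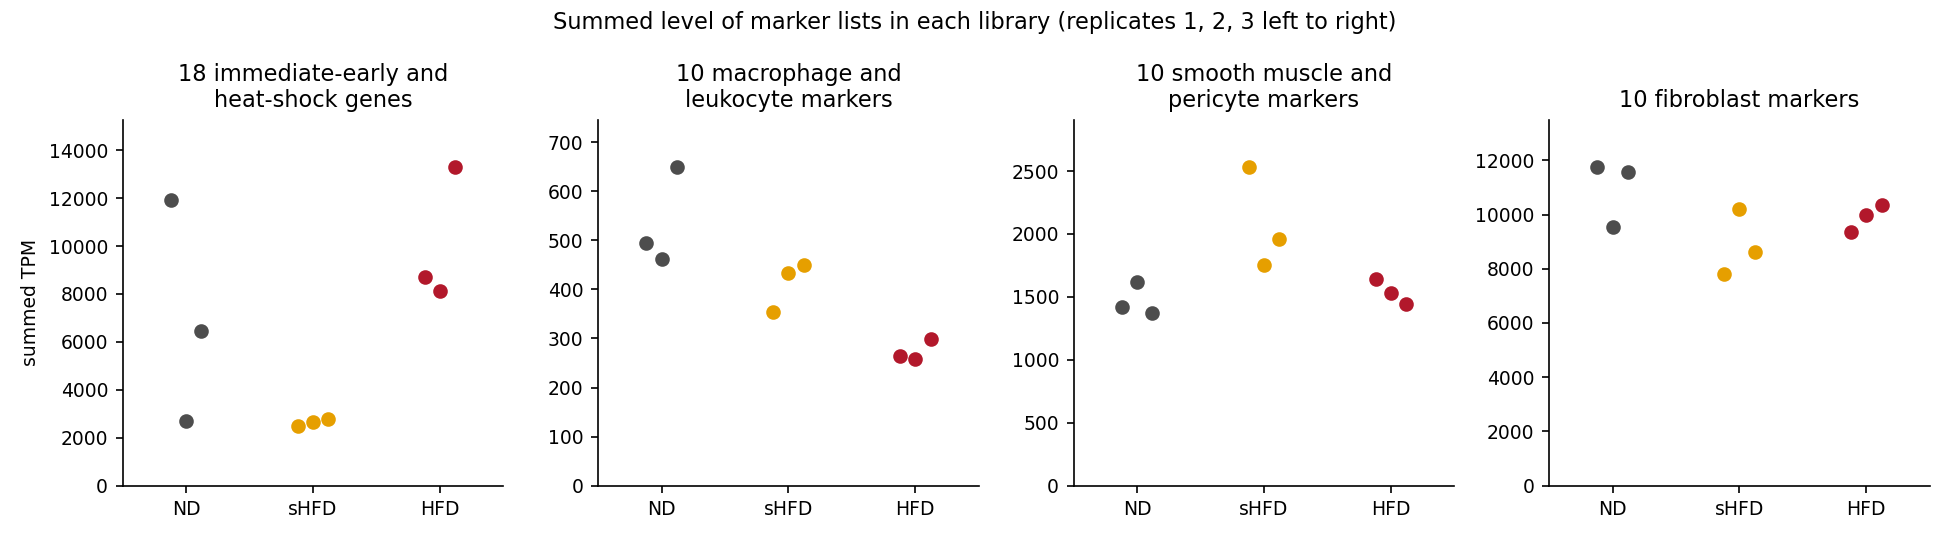
Summed TPM (vertical axes, from 0) of 4 marker lists in each library by diet, with replicates 1, 2 and 3 from left to right. The immediate-early and heat-shock sum is high in HFD and in ND replicate 1 and low in sHFD, and the macrophage and leukocyte sum is lowest in HFD.

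Transcript length also went with the direction of change. Genes whose longest GENCODE transcript has at least 8000 bases, 738 of those tested, had a median log2 fold change of 0.01 in HFD vs sHFD and 14.4% of them passed as higher, beside -0.20 and 7.75% for the 3316 genes under 2000 bases. Igf1r (11409 bases), Insr (9355), Irs1 (9144) and Igf2r (8887) belong to the long class, Irs2 has 6323 bases, Igfbp3 2421 and Igfbp7 1200. With the trend on length removed, Igf1r, Irs2 and Igfbp3 passed in HFD vs sHFD, as did Irs1 (log2 0.62, limma adjusted p = 0.0056).

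On GRCm38.p6 Igf2 lies at chr7:142650768-142666816 and Igf1r at chr7:67952257-68233668, Igf1 at chr10:87858265-87937047, Igf2r at chr17:12682406-12769706, Insr at chr8:3150922-3279649, Irs1 at chr1:82233105-82291439, Irs2 at chr8:10984681-11008929, Igfbp3 at chr11:7206086-7215498, Igfbp5 at chr1:72858065-72874865 and Igfbp7 at chr5:77349240-77408045, all protein-coding. Values of 2 members are uncertain because their exons overlap another gene: 3596 of 5723 exon bases of Igf2 are shared in sense with the read-through gene Gm49394, and 2822 of 9144 exon bases of Irs1 lie antisense to Gm9747, with no row for either partner in the table. Whether counting used strand is not stated. Irs2 shares 162 exon bases with an antisense transcript and Igfbp7 85 with Polr2b.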

How the data were processed

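The authors deposited 1 table of TPM values, with a column for each of 9 libraries of newborn mouse cardiomyocytes. The submitters' processing notes name RSEM 1.3.1 and GRCm38 without saying for which step, and no source used here gives the aligner or the annotation. Libraries were made from mRNA, per the labels' protocols. Columns were matched by name and number, CON read as ND, MID as sHFD and HIGH as HFD. Nothing states that libraries of a diet come from separate animals, so a p-value covers only their spread, which may be technical. Identical libraries numbered 0, and 0 columns of per-sample values were left unused.

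Genes averaging 1 TPM or more were tested as log2(TPM + 1) in limma 3.58.1 (R 4.3.3) with diet as the only factor, all 9 libraries and a variance trend on intensity. Two-sided p-values were adjusted by Benjamini-Hochberg over 13655 genes and called at 0.05. Fold changes on this scale understate those of low genes. Permuting 3 against 3 libraries exactly gives no p below 0.1, so such a test was not used. The fit was tested on simulated data.

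Named genes are the 10 members, the 3 genes of each pathway list with the lowest p against ND for HFD, and the 3 nearest profiles of each member. Some genes that come under this rule are not reported here. Members and lists were chosen with earlier results of these data known. Transcript lengths and GC content came from the longest coding transcript in GENCODE M21, found for 97.2% of genes, and promoters and positions from RefSeq on GRCm38.p6. Alternatives changed the pseudocount, filter, scaling, variance model, libraries and replicate block, and, added after seeing the data, removed trends on GC content or length.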

Additional observations from a re-analysis of the deposited data

How the results depend on the processing

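Igfbp3, Irs2 and Igf1r passed as higher in HFD than in sHFD in each of the 20 alternatives, at log2 differences of 1.04 to 1.48, 1.02 to 1.62 and 0.62 to 0.90, with adjusted p of at most 0.0157, 0.0360 and 0.0422. The number of members past the threshold in HFD vs sHFD was 3, and it was 5 with quantile normalization, 5 with only the 2 diets compared, 6 with the GC trend removed, 5 with the length trend removed and 3 to 5 with a library left out, the highest without ND replicate 2. In HFD vs ND it was 1, and it was 0 with no filter on low values, no variance trend or only the 2 diets compared, 3 with quantile normalization, 4 with median-ratio scaling, 5 and 4 with the GC or length trend removed, and 0 to 6 with a library left out, 6 without ND replicate 1. In sHFD vs ND it was 0 in every alternative, while the all-gene count of 1 became 360 without ND replicate 2. In HFD vs sHFD 34.2% of all genes passed. The share was 35.2% with quantile normalization, 41.1% with only 2 diets, and 40.8% and 41.5% with the GC or length trend removed. It was 19.7% to 40.0% with a library left out. In HFD vs ND 10.9% passed, 4.07% with no filter, 11.1% with no variance trend and 3.08% with only 2 diets. Quantile normalization gave 7.79%, median-ratio scaling 12.2%, the GC or length trend removed 11.9% and 15.4%, and leaving out a library 0.234% to 28.1%. Deviations of samples of the same replicate number had correlations of -0.29 to 0.41, beside -0.35 to 0.35 for different numbers. With 3 libraries a diet, these values can neither show nor exclude a pairing by number. With the replicate block, 1 member passed in HFD vs ND, 4 in HFD vs sHFD and 0 in sHFD vs ND. The single call against ND was then Igf1 (log2 -0.63, adjusted p = 0.0426) and no longer Igfbp7, whose adjusted p was 0.0531. Small differences changed sign. In HFD vs ND, Igf2 had 0.13 with median-ratio scaling, 0.044 with quantile normalization, 0.20 and 0.11 with the GC or length trend removed and -0.078 to 0.028 with a library left out; Igf2r had -0.018 with quantile normalization and -0.059 to 0.18 with a library left out, and Insr -0.17 to 0.37. In HFD vs sHFD, Igf2r had 0.15 with median-ratio scaling, 0.20 with the GC trend removed and -0.12 to 0.053 with a library left out. Igfbp5 had 0.14, 0.16 and 0.055 with median-ratio scaling and with the GC or length trend removed, and -0.24 to 0.20 with a library left out. In sHFD vs ND, Irs1 had -0.0085 with quantile normalization, and with a library left out Igf1 spanned -0.27 to 0.094, Igf2r -0.015 to 0.19, Irs1 -0.15 to 0.14, Irs2 -0.64 to 0.032 and Igfbp7 -0.32 to 0.023. The cause of these changes was not tested. Read depth is unknown, so no counting error can be given for any value.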
